A study of Mus musculus with 20 samples.

Results

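Nuclear genes of the machinery that transcribes and copies mitochondrial DNA were examined in the adult mouse hippocampus, 7 of the 48709 genes counted. They were Tfam, Tfb1m, Tfb2m, Polrmt, Polg, Polg2 and Ssbp1, found by their symbols in the deposited gene map. Tfb2m was picked on its counts, which were lower in males exposed to nPM, nanosized particulate matter from urban air, before birth. Its values in males are therefore given as a description with no test. The other 6 genes were included for their roles beside it. All 7 passed the filter on low counts, with 52 to 2037 reads per sample, and were among the 19797 genes tested.

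Mitochondrial DNA is a small circle that encodes 13 proteins of the respiratory chain, 2 ribosomal RNAs and 22 transfer RNAs. Its transcription is carried out by POLRMT, a single-subunit RNA polymerase, which starts at the promoters together with TFAM, a protein that bends and packages mitochondrial DNA, and TFB2M, which helps to melt the promoter. TFB1M is a relative of TFB2M that methylates the small mitochondrial ribosomal RNA. POLG is the catalytic subunit of the DNA polymerase that copies the circle, POLG2 is its accessory subunit and SSBP1 binds the single strands exposed during copying. The hippocampus, with its dense synapses, depends on mitochondrial respiration.

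The mice were C57BL/6 (C57BL/6J in the methods) offspring of dams that breathed filtered air (control) or re-aerosolized nPM from gestational day 2 until birth, for 5 h a day on 3 days a week. The study's methods give the concentration as 300 μg/m3, whereas the sample notes write mg. RNA-seq was done on 5 hippocampi of each of 4 groups, namely females and males from control dams and females and males from nPM dams. Each sample was 1 animal drawn from the offspring of 5 litters per exposure group, so littermates may be present and p-values describe the spread between these animals. By label the females were 17.71 to 18.29 weeks old and the males 18.57 to 19.14 weeks old. The methods also describe injections of the nucleoside EdU in males, and add that all animals received it. Whether this includes females is not clear. Sex and age cannot be told apart, and neither can injection if only males received it.

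Total counts were between 19092067 and 38663408 per sample. Markers of dentate granule cells, pyramidal cells, interneurons and glia were detected in every group, as a hippocampal dissection would hold. All 12 markers of choroid plexus, a tissue next to the hippocampus, were detected too. Their summed level passed 1000 CPM (read counts scaled to library size) in none of the 5 control females, 2 of the nPM females, 3 of the control males and 2 of the nPM males. Ttr, the main transcript of the choroid plexus, reached 7661 CPM in nPM female 1. All 6 markers of striatum and all 6 of thalamus were also detected in every group. The highest striatal sum was 280 CPM in nPM females (median 43) and 59.3 to 102 CPM in the other groups. The highest thalamic sum was 364 CPM in nPM males (median 195) and 217 to 277 CPM in the other groups. The part of these regions in the results was not tested. nPM female 4 had the lowest total count and the lowest mean correlation with the other samples of its group (r = 0.9567 across genes). Results that rest on it are given with and without it where both were computed.

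Stretches of DNA near the start of each gene are shown first, since 6 of the 7 genes share letters there. In the RefSeq promoters, 250 bases before to 50 bases after the start in GRCm38.p6, the letters CGGAAG (or CTTCCG on the other strand), the core bound by ETS factors such as GABPA, were found in 6 of the 7 genes. They were found in 16.9% of all 32851 promoters of this length. The letters GCATGCGC (or GCGCATGC), a core bound by NRF1, were found in 2 of the 7 and in 2.71% of all. The 2 motifs cannot overlap by more than 1 base. Capitals mark the match nearest to the start, read along the strand of the gene.
Tfb2m, ETS letters (promoter chr1:179546227-179546526, minus strand): taggcggaagCGGAAGcgagtgagca
Tfb2m, NRF1 letters: taggtcgttcGCATGCGCcattcgtaat
Polrmt, ETS letters (chr10:79746532-79746831, minus strand): cctaagagcgCTTCCGgcagtcgcag
Polrmt, NRF1 letters: gagtatttctGCGCATGCtctcttgccg
Tfam, ETS letters (chr10:71237995-71238294, minus strand): tgccgcggacCGGAAGtccgggcttc
Polg, ETS letters (chr7:79466224-79466523, minus strand): ggacctcaccCGGAAGtccctctgca
Polg2, ETS letters (chr11:106779488-106779787, minus strand): gggtgacgctCTTCCGggggcgtggt
Ssbp1, ETS letters (chr6:40471218-40471517, plus strand): ctccgtgcgcCGGAAGcgagccgctg
In these windows the first base of the ETS letters lay at -46 in Tfam, -25 in Tfb2m, -43 in Polrmt, -37 in Polg, -29 in Polg2 and -46 in Ssbp1, counted from the RefSeq start. The NRF1 letters lay at 14 bases into Tfb2m and at -133 in Polrmt. The Tfb1m promoter held neither motif. A match is a description of letters and no binding was measured here.

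Tfb2m shares its start region with Cnst, which is read in the opposite direction and encodes consortin, a protein of connexin trafficking. In the deposited map 102 bases lie between the 2 genes. The stretch from the RefSeq start of Tfb2m to the start of Cnst in the deposited map, chr1:179546277-179546369 on the minus strand, holds the ETS letters as a pair, in capitals. It is not the stretch between the 2 RefSeq starts.
Tfb2m and Cnst: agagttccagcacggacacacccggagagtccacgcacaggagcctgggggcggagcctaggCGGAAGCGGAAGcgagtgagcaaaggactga

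Tfb2m (chromosome 1, 179528055 to 179546267) was measured at 26.1, 21.6, 25, 23.5 and 20.3 CPM in the 5 control males. In the 5 nPM males it was measured at 17.6, 20.5, 16.8, 18.5 and 14.3 CPM. Of the nPM males, 4 lay below every control male, and nPM male 2 lay just above the lowest control, so the groups overlapped by 1 sample. The group means were 23.3 ± 2.41 and 17.5 ± 2.26 CPM (SD, n = 5), a log2 fold change of -0.41 (SE 0.10), a change of -24.7%. These are the values that chose the gene. They rest on 474 to 900 reads per sample in males, for which counting alone would give a coefficient of variation of 3.74% in controls and 4.09% in nPM males, against 10.3% and 12.9% measured.

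In females Tfb2m did not pass the test. Control females had 14.4, 15.7, 20, 20.8 and 14.8 CPM, and nPM females had 18.6, 15.9, 18.8, 17.1 and 12.5 CPM. The groups covered nearly the same range, with means of 17.1 ± 3.04 and 16.6 ± 2.58 CPM (SD, n = 5). The log2 fold change was -0.06 (SE 0.15, 95% interval -0.38 to 0.26, limma adjusted p = 1.0). This interval leaves room for a difference of up to 0.38 in the lower direction, close to the size described in males. The difference between the male and the female log2 fold changes was -0.35 (SE 0.18) and was not tested, because it holds the male samples on which the gene was picked.

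**Figure D1:**
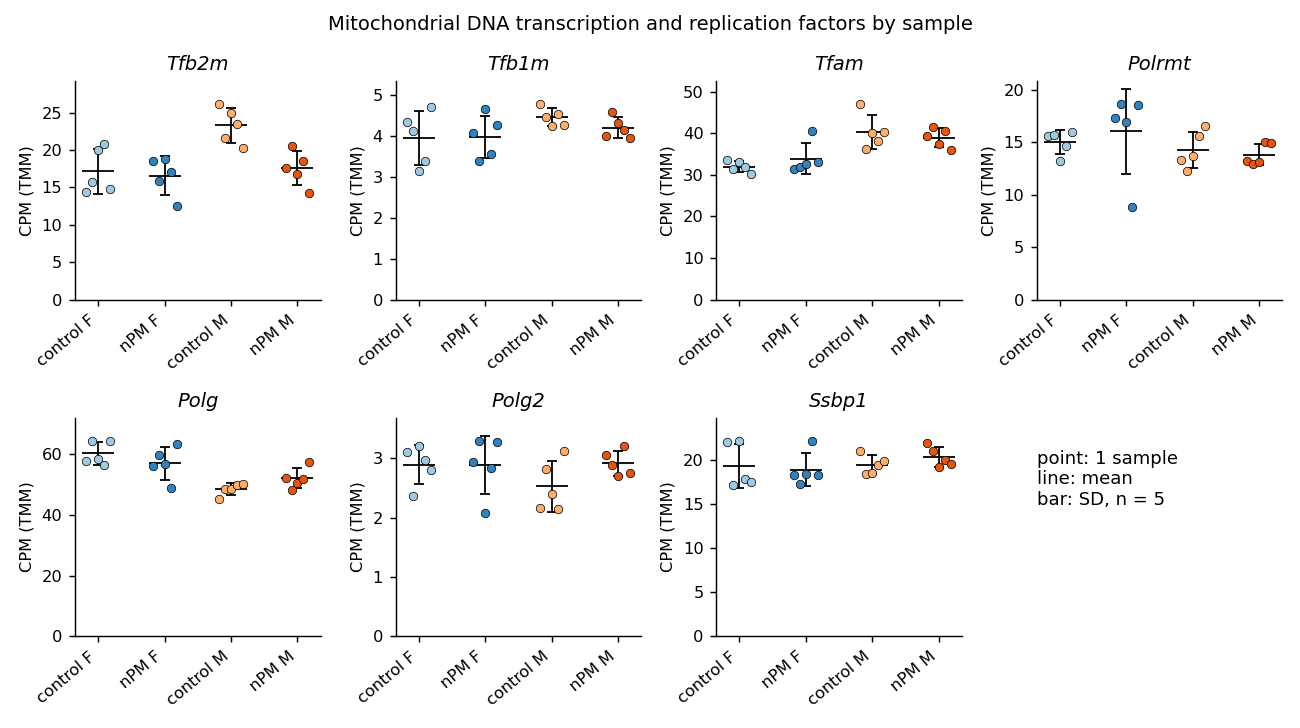
Expression of the 7 genes in each of the 20 samples, as CPM after TMM normalization on the vertical axis, with points for samples, horizontal lines for means and bars for the SD (n = 5 per group). Tfb2m in nPM males, at 14.3 to 20.5 CPM, covers nearly the range of control females, 14.4 to 20.8 CPM, while control males lie at 20.3 to 26.1 CPM.

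Seen across the 4 groups, control males were the group that stood apart in Tfb2m. Their lowest sample, 20.3 CPM, was near the highest control female, 20.8 CPM. Males exceeded females by 0.43 on the log2 scale in controls (SE 0.12) and by 0.09 in nPM samples (SE 0.13), again with no test, since control and nPM males chose the gene. Tfb2m was also set against the mean log2 level of the other 6 genes in the same sample. That difference was 0.78 ± 0.19 in control males and 0.33 ± 0.18 in nPM males, beside 0.32 ± 0.30 in control females and 0.27 ± 0.30 in nPM females (log2, SD, n = 5). Relative to the rest of the machinery in the same samples, control males had the highest mean. This difference holds the Tfb2m values that chose the gene, so it is no separate result.

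Samples rich in choroid plexus markers were present in both male groups. Among control males, Tfb2m was 25 to 26.1 CPM in the 2 samples with less than 1000 CPM of these markers and 20.3 to 23.5 CPM in the 3 with more. Among nPM males it was 14.3 to 18.5 CPM in the 3 poorer samples and 16.8 to 20.5 CPM in the 2 richer ones. Without the richer samples the log2 fold change in males was -0.62, from 2 control and 3 nPM males. Leaving out 1 male at a time gave -0.47 to -0.34. These values come from the samples that chose the gene, so they do not test the difference. In whole tissue, fewer cells with a transcript and less of it per cell cannot be told apart.

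The partners of TFB2M at the promoter did not pass the test in either sex. Tfam was measured at 46.9, 36.1, 40.1, 38.1 and 40.3 CPM in control males and at 39.3, 41.4, 37.3, 40.6 and 35.9 CPM in nPM males. These groups overlapped almost entirely, with a log2 fold change of -0.05 (SE 0.076, 95% interval -0.21 to 0.12). In females Tfam had a log2 fold change of 0.07 (SE 0.083, 95% interval -0.11 to 0.25), and 4 of the 5 nPM females lay at 31.4 to 33.1 CPM, within the control range of 30.2 to 33.5 CPM. The exception was nPM female 4 at 40.5 CPM, without which the log2 fold change was 0.02.

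Polrmt, the polymerase itself, was 13.3, 12.3, 13.7, 15.6 and 16.5 CPM in control males and 13.2, 12.9, 13.1, 15 and 14.9 CPM in nPM males. All nPM males lay within the control range (log2 fold change -0.06, SE 0.097, 95% interval -0.27 to 0.16). In females the picture was split by a single sample. In 4 nPM females it was 16.9 to 18.6 CPM, above all control females at 13.2 to 16 CPM, and in nPM female 4 it was 8.86 CPM, the lowest of all samples. The log2 fold change was 0.09 (SE 0.17, 95% interval -0.28 to 0.46) with this sample and 0.27 without it. Neither passed the test, and over the 19 alternatives tried in females the adjusted p of Polrmt by limma, edgeR or DESeq2 lay between 0.972 and 1.0.

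Tfb1m, the relative of Tfb2m, was 4.24 to 4.77 CPM in control males and 3.96 to 4.58 CPM in nPM males, with 3 of the 5 nPM males below every control. Its log2 fold change of -0.09 (SE 0.10, 95% interval -0.31 to 0.13) did not pass the test. In males its coefficient of variation, 4.84% in controls and 6.06% in nPM samples, was below the 8.55% and 8.32% that counting alone would give, so smaller differences in this gene were not detectable at this depth. In females the log2 fold change was 0.06 (SE 0.16, 95% interval -0.29 to 0.40). On the other strand Tfb1m is overlapped by Tiam2 by 135 bases and Cldn20, which had a mean of 4.45 reads, and whether the counting used strand is not given in the sources used here.

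The genes of DNA replication did not pass the test in either sex. Polg was 45.2, 48.4, 48.5, 49.7 and 50.2 CPM in control males and 52.3, 48.3, 50.6, 51.8 and 57.4 CPM in nPM males. Of the nPM males, 4 lay above every control, in the direction opposite to Tfb2m, with a log2 fold change of 0.10 (SE 0.061, 95% interval -0.03 to 0.24). In females the log2 fold change of Polg was -0.08 (SE 0.082, 95% interval -0.26 to 0.10), and -0.02 without nPM female 4. The male and female changes differed by 0.18 (SE 0.097, 95% interval -0.02 to 0.38, limma adjusted p = 0.987). Polg overlaps Fanci by 4034 bases on the other strand, but Fanci had a mean of 18.2 reads against 890 or more for Polg.

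Polg2, the scarcest of the 7 at 52 to 116 reads per sample, had means of 2.53 ± 0.431 CPM in control males and 2.92 ± 0.209 CPM in nPM males (SD, n = 5). The groups overlapped, with a log2 fold change of 0.22 (SE 0.14, 95% interval -0.10 to 0.53). In females it was -0.03 (SE 0.17, 95% interval -0.40 to 0.34). Milr1, which overlaps Polg2 by 542 bases on the other strand, had a mean of 4.05 reads. Ssbp1 had 18.5 to 21.1 CPM in control males and 19.3 to 22.0 CPM in nPM males, a log2 fold change of 0.07 (SE 0.067, 95% interval -0.08 to 0.21). In females it was -0.04 (SE 0.11, 95% interval -0.27 to 0.19), and nPM female 4 stood above the rest of its group at 22.2 CPM. Without that sample it was -0.08.

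In females the limma adjusted p was 1.0 for each of the 7 genes, and in males it was 0.963 or 0.964 for each of the 6 other than Tfb2m. In counts, 0 of the 7 genes passed the study's threshold, an unadjusted p under 0.005, in females, where 0.0859% of all genes tested did. Among the 6 genes other than Tfb2m, 0 passed in males (background 0.207%), 0 with both sexes in 1 fit (0.141%) and 0 for the difference of the nPM effect between the sexes (0.217%). At an unadjusted p under 0.05 the counts were also 0, against backgrounds of 2.00%, 4.28%, 2.10% and 3.79%. Beside backgrounds this low, the intervals above say more than the counts. By limma 0 of all genes passed an adjusted p of 0.05 in these 4 fits, while edgeR called 1 gene for the difference between the sexes and DESeq2 called 1 in females and 1 in males. None of the 7 genes separated nPM from control females without overlap (background 0.364%), and none of the 6 did so in males (background 0.667%). The male samples are the same ones on which Tfb2m was picked.

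**Figure D2:**
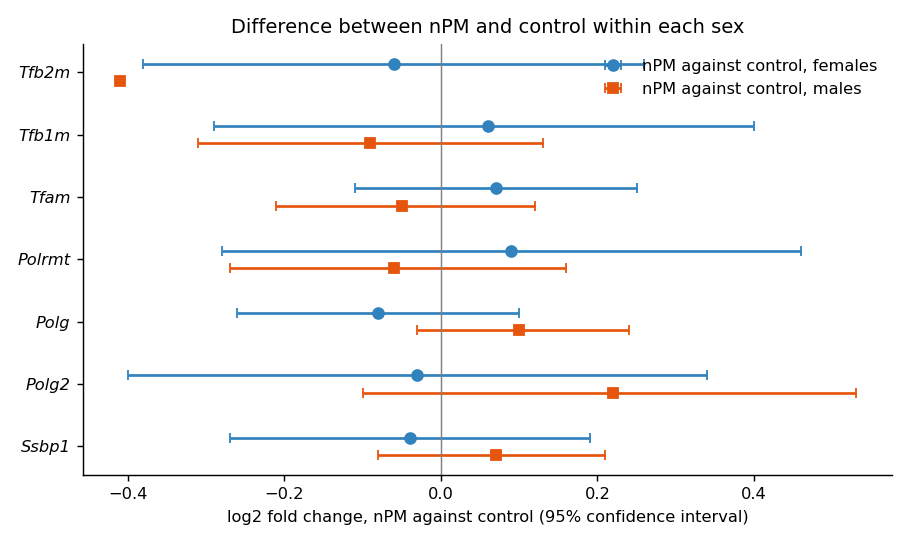
Log2 fold change of nPM against control for each of the 7 genes in females (circles) and males (squares), with bars for the 95% interval of the limma fit (n = 5 per group). No interval is drawn for Tfb2m in males, at -0.41, since that contrast chose it, and every interval that is drawn holds 0.

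Tfam and Polg differed between the sexes in controls. There, 2 of the 6 genes other than Tfb2m passed an adjusted p of 0.05 between males and females, beside 27.2% of all genes tested. Tfam was higher in males, at 40.3 ± 4.09 against 32 ± 1.32 CPM (SD, n = 5), a log2 difference of 0.32 (SE 0.078, limma adjusted p = 0.0115). The control males lay at 36.1 to 46.9 CPM, above every control female at 30.2 to 33.5 CPM. Polg was lower in males, at 48.4 ± 1.97 against 60.3 ± 3.68 CPM, a log2 difference of -0.31 (SE 0.064, limma adjusted p = 0.00643). The control males lay at 45.2 to 50.2 CPM, below every control female at 56.6 to 64.3 CPM. A share of 2 in 6 is near the background and is not a result about the machinery. How many of all genes separate control males from control females without overlap was not counted.

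Between nPM males and nPM females, 0 of the 6 passed, beside 12% of all genes. Tfam differed by 0.21 (SE 0.081, limma adjusted p = 0.110) and Polg by -0.13 (SE 0.08, limma adjusted p = 0.308). The sex difference itself was not shown to change with exposure, since this is the same contrast as the difference of the nPM effects, with a limma adjusted p = 0.987 for both Tfam and Polg. All 12 choroid plexus markers had higher values in control males than in control females, with a median log2 difference of 1.93, but none passed the correction (limma adjusted p from 0.150 for Calml4 to 0.509 for Otx2). Their part in the sex differences was not tested. Without the samples rich in them, which left 2 control males, Tfam kept its call and Polg had an adjusted p of 0.0592, so the count was 1.

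Levels were compared between genes per length, as counts scaled by gene model length and library size (RPKM). Tfam was highest at 8.16 ± 0.868 RPKM over the 20 samples, followed by Tfb2m at 6.63 ± 1.20 and Polg at 5.08 ± 0.65. Polrmt at 3.16 ± 0.544 and Tfb1m at 3.12 ± 0.351 could not be ranked, with Polrmt the higher in 11 of 20 samples. Ssbp1 followed at 2.34 ± 0.214 RPKM, over a gene model of 8360 bases that joins all its exons. Polg2 was lowest at 0.645 ± 0.0982 RPKM, so that the accessory subunit was measured well below the catalytic one in each of the 20 samples. Tfb2m exceeded Polg in 15 of 20 samples and Tfam exceeded Tfb2m in 19. The order depends on the gene model lengths, which were 10742 bases for Polg and 2804 for Tfb2m. Before scaling by length, group means were 48.4 to 60.3 CPM for Polg and 16.6 to 23.3 CPM for Tfb2m. Over the 20 samples the coefficient of variation of CPM was highest in Tfb2m, at 19.7%, which includes the difference that chose it, and lowest in Ssbp1, at 8.71%.

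The product of this machinery was read in the counts on the mitochondrial genome. Ribosomal RNA was depleted from the libraries with a kit that also targets mitochondrial ribosomal RNA, and 84.4% of the mitochondrial counts still came from mt-Rnr1 and mt-Rnr2, with 15.5% from the 13 mRNA genes. In males the share of all counts on the mitochondrial genome was 14.3, 14, 13.5, 14.1 and 13.8% in controls and 13.9, 13.0, 13.4, 13.0 and 11.4% in nPM samples. It was lower by 1.01 percentage points (exact permutation p = 0.0238, adjusted p = 0.143 over 12 tests), a difference that failed the correction. The adjusted p therefore gives no call, and nPM male 5 carries part of the size, since without it the difference was -0.63 percentage points (exact permutation p = 0.0397). Without control male 1 or control male 4 the exact permutation p was 0.0635 or 0.0556.

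In females the share was 11.8, 11.6, 12.9, 11.1 and 13.3% in controls and 12.4, 15.2, 12.3, 15.7 and 12.1% in nPM samples. The difference was 1.39 percentage points in the upper direction (exact permutation p = 0.19), with nPM females 2 and 4 above every control, and 0.843 without nPM female 4. The male change minus the female change was -2.40 percentage points (exact permutation p = 0.021, adjusted p = 0.0515 over 6 measures). It came with the ribosomal RNAs, for which it was -2.36 (exact permutation p = 0.0128, adjusted p = 0.0515), and was -0.108 for mRNA as a percentage of counts outside mitochondrial ribosomal RNA (exact permutation p = 0.595). These contrasts between the sexes were not computed without nPM female 4. Without that sample the female difference in ribosomal RNA was 0.993 percentage points, beside 1.42 with it. The ribosomal RNA left by the depletion and the ribosomal RNA present in the tissue cannot be told apart.

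**Figure D3:**
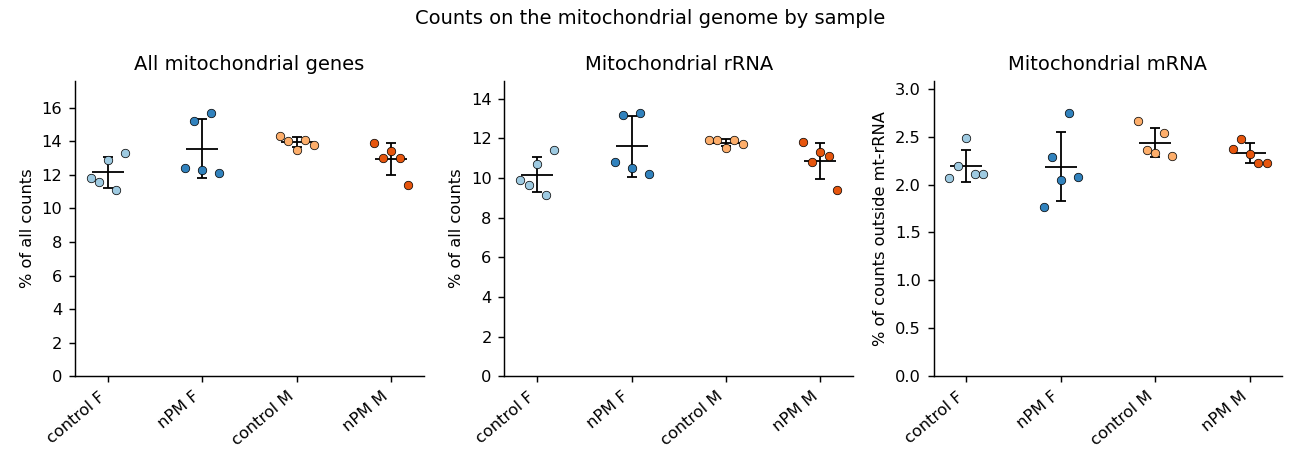
Percentage of counts on the mitochondrial genome in each sample, for all mitochondrial genes and for the ribosomal RNAs (of all counts) and for the mRNAs (of counts outside mitochondrial ribosomal RNA), with lines for means and bars for the SD (n = 5 per group). The mRNA share has means of 2.19% in both female groups, 2.44% in control males and 2.33% in nPM males.

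Mitochondrial mRNAs, whose level is not a target of the depletion, did not differ detectably with exposure. Their share was 2.19 ± 0.17% in control and 2.19 ± 0.362% in nPM females (exact permutation p = 1.0), and 2.44 ± 0.154% in control and 2.33 ± 0.106% in nPM males (exact permutation p = 0.238; SD, n = 5). Without nPM female 4, at 2.75%, the nPM female mean was 2.05% (difference -0.143 percentage points, exact permutation p = 0.349). None of the 13 mRNAs passed an unadjusted p under 0.05 in either sex. In males 11 of the 13 had values below 0, from -1.27 to 0.03, and in females 8 of the 13, from -1.09 to 0.36. Of all 19797 genes tested, 9987 were below 0 in males and 10717 in females. The mRNAs farthest from 0 had large errors, such as mt-Nd4l at -1.27 (SE 0.93) and mt-Co2 at -1.06 (SE 0.72) in males and mt-Nd3 at -1.09 (SE 0.56) in females. The 3 most abundant mRNAs were mt-Co1 with log2 fold changes of 0.05 in females and -0.08 in males, mt-Cytb with -0.01 and -0.06, and mt-Nd1 with -0.04 and -0.08. The larger ribosomal RNA, mt-Rnr2, had 0.22 in females (SE 0.11, limma adjusted p = 1.0) and -0.16 in males (SE 0.068, limma adjusted p = 0.963). Its unadjusted limma p was 0.0642 in females and 0.0349 in males, while mt-Rnr1 had log2 fold changes of 0.11 and -0.12. Of the 12 transfer RNAs tested, 2 passed an unadjusted p under 0.05 in males and 0 in females, beside 4.28% and 2.00% of all genes. mt-Nd6, the only mRNA of the light strand, made up 0.534 ± 0.0708% of mitochondrial mRNA counts in control and 0.708 ± 0.183% in nPM females (exact permutation p = 0.0556). The highest value, 1.01%, was that of nPM female 4, the others lay at 0.589 to 0.756%, and without it the nPM mean was 0.633% (exact permutation p = 0.0873). Exchange of 5 against 5 samples can give no exact p below 0.00794.

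Within groups, the correlation of Tfb2m with mitochondrial RNA did not pass the test. After the group means were taken away, the Pearson correlation of Tfb2m with mitochondrial counts per nuclear count was 0.12 over the 20 samples (permutation p = 0.678, Spearman rho 0.09, permutation p = 0.729, adjusted p = 0.678 over the 7 genes). Without the 2 samples farthest from the median, nPM male 5 and nPM female 4, it was -0.02. None of the 7 genes had an adjusted p below 0.05. Against mitochondrial mRNA alone, Tfb2m had a correlation of 0.19 (permutation p = 0.513, adjusted p = 0.598, Spearman rho 0.26, permutation p = 0.301), which was 0.52 without the 2 samples farthest from the median, nPM females 1 and 4. Tfam had the highest correlation, 0.63 (permutation p = 0.0109, adjusted p = 0.0764, Spearman rho 0.33, permutation p = 0.198), which was 0.43 without these 2 samples. Polrmt had the lowest, -0.70 (permutation p = 0.0303, adjusted p = 0.106, Spearman rho -0.54, permutation p = 0.0286), and -0.36 without them. None of the 3 passed the correction, and nPM female 4, at 2.75% mitochondrial mRNA, 40.5 CPM of Tfam and 8.86 CPM of Polrmt, is at the end of the relations of Tfam and Polrmt.

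**Figure D4:**
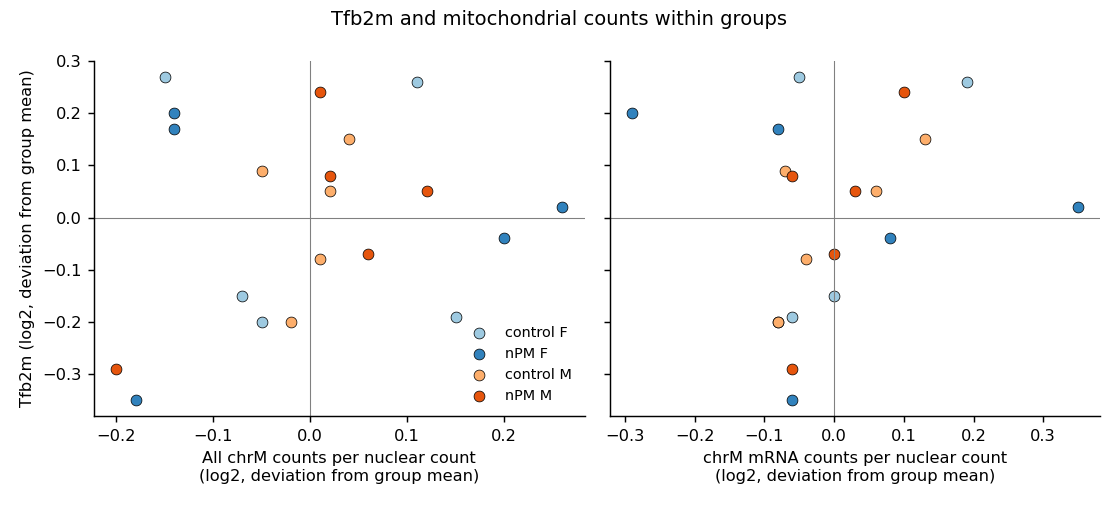
Tfb2m (vertical axis) against all mitochondrial counts (left) and mitochondrial mRNA counts (right) in each of the 20 samples, all per nuclear count on the log2 scale as deviations from the group mean. The points show no clear slope on the left, with Pearson r = 0.12 (-0.02 without the 2 samples farthest from the median), and r = 0.19 on the right (0.52 without the 2 farthest).

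The 7 genes did not vary as 1 unit. Of the 21 pairs, 4 passed an adjusted permutation p of 0.05 over deviations from the group means in 20 samples. The share among pairs of all genes was not computed, so the count is not a result about the machinery. Polrmt went with Polg (r = 0.77, permutation p = 0.00048, adjusted p = 0.00504, Spearman rho 0.65, permutation p = 0.00086), and Tfam with Ssbp1 (r = 0.72, permutation p = 0.00025, adjusted p = 0.00504, Spearman rho 0.72, permutation p = 0.00028). Tfam went against Polg (r = -0.72, permutation p = 0.00253, adjusted p = 0.0177, Spearman rho -0.62, permutation p = 0.00603), as did Tfb2m (r = -0.66, permutation p = 0.00889, adjusted p = 0.0467, Spearman rho -0.67, permutation p = 0.00636). Without the 2 samples farthest from the median of the first gene, r was 0.69, 0.61, -0.49 and -0.48 for these pairs, and without nPM female 4 alone 0.64, 0.63, -0.58 and -0.75. Tfb2m and Tfb1m had r = -0.27 (permutation p = 0.349, adjusted p = 0.573, Spearman rho -0.22, permutation p = 0.435) and -0.06 without the 2 farthest.

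Across all genes tested, those whose deviations were most like Tfb2m were Mdp1 and Mrps2 (both r = 0.81), Gtf2h5 (0.80), and Eif1a and Rnf34 (both 0.78). Mrps2 encodes a protein of the small mitochondrial ribosomal subunit, Gtf2h5 a subunit of the general transcription factor TFIIH and Eif1a a translation initiation factor. The least like were Gm43953 (-0.77), Ptgdr, a prostaglandin D2 receptor (-0.75), and Gm26466 (-0.73). Over all genes 5% had r below -0.43 and 5% above 0.44. With the group means kept, Oscp1 (0.87), Wdr1 (0.81), and Cdnf, Gdpd1 and Reep5 (each 0.79) were the most like. These are descriptions over 20 samples with no test.

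No tested neighbor of Tfb2m within 20 kb had an unadjusted p under 0.05 in either sex. Cnst, across the shared start region printed above, had 46.3 ± 7.99 CPM in control males and 43.4 ± 4.35 CPM in nPM males (SD, n = 5), a log2 fold change of -0.09 (SE 0.11). Its deviations had r = -0.08 with those of Tfb2m. On the other side, Smyd3, a lysine methyltransferase, had a log2 fold change of -0.07 in males (SE 0.11), and the pseudogene Gm5561 had -0.23 (SE 0.29). The pseudogene Gm15480 inside Tfb2m had a mean of 0.1 reads, too few to add to its counts. Among the neighbors of the other genes within 20 kb, 2 had an unadjusted p under 0.05 in 1 sex and neither passed the correction, namely Cep95 near Polg2 at 0.25 in males (SE 0.093, limma adjusted p = 0.963) and Pecam1 at 0.23 in females (SE 0.099, limma adjusted p = 1.0).

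The wider pathway was read in 89 other nuclear genes in 5 lists, all of which were tested. In females 0 of the 89 passed an unadjusted p under 0.005, with or without nPM female 4, beside 0.0859% of all genes tested. In males 1 was higher and 0 were lower at that threshold, beside 0.207% of all genes. That gene was Fastkd1, a member of a family of mitochondrial RNA-binding proteins, at 0.23 on the log2 scale (SE 0.066, limma adjusted p = 0.963). It lost the call without the samples rich in choroid plexus markers, where 0 of the 89 passed. Prkaa2, a catalytic subunit of the energy sensor AMPK, was just outside the threshold at -0.23 (SE 0.067, limma adjusted p = 0.963).

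By role, the 16 other genes of mitochondrial DNA transcription and replication had a median log2 fold change of 0.00 in females and 0.03 in males, beside -0.01 and -0.00 over all genes tested. None passed an unadjusted p under 0.05 in either sex, and the smallest p was that of Top1mt, the mitochondrial topoisomerase, in females (-0.13, SE 0.087) and of Lig3, a DNA ligase, in males (0.13, SE 0.068). The 19 genes of RNA processing had medians of 0.01 and -0.01, with Supv3l1, an RNA helicase, at -0.13 in females (SE 0.084). The 19 genes of ribosomal RNA modification and ribosome assembly had medians of 0.02 and -0.02, with Mtg1 at 0.15 in females (SE 0.13) and Mettl17 at 0.16 in males (SE 0.073). The 18 regulators of mitochondrial biogenesis had medians of -0.01 and 0.00, with Ppargc1a, the coactivator PGC-1α, at -0.12 in females (SE 0.11).

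The 17 nuclear genes used as a measure of mitochondrial content, such as porins, import receptors and chaperones, had a median of 0.05 in females, where Hspd1 had the smallest p (0.06, SE 0.067). In males 16 of the 17 had values below 0, with a median of -0.07, beside 9987 of all 19797 genes tested. The 17 values come from the same samples and are not separate observations. Of the 17, 0 passed an unadjusted p under 0.005 and 1 passed 0.05, beside 4.28% of all genes. That was Vdac1, the main porin of the outer membrane, at -0.12 (SE 0.054, limma adjusted p = 0.963). Without the samples rich in choroid plexus markers, 14 of the 17 were below 0, with a median of -0.17 and 0 calls.

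Between control males and control females, 18 of the 89 were higher and 9 lower in males at an adjusted p of 0.05, beside 11.6% and 15.6% of all genes. The content genes accounted for 10 of the 18, with none lower and a median log2 difference of 0.26, among them Cycs, the gene of cytochrome c, at 0.59 (SE 0.13, limma adjusted p = 0.00755) and Tomm20, an import receptor, at 0.45 (SE 0.083, limma adjusted p = 0.00458). Regulators went both ways, 3 higher and 5 lower. The lower ones included Ppargc1b at -0.73 (SE 0.11, limma adjusted p = 0.00337) and Pprc1 at -0.68 (SE 0.11, limma adjusted p = 0.00360), both coactivators of the PGC-1 family, and Nrf1, the factor whose core letters are printed above, at -0.35 (SE 0.098, limma adjusted p = 0.0220). mt-Rnr2 was higher in control males by 0.31 (SE 0.064, limma adjusted p = 0.00627). Of the 3 most abundant mitochondrial mRNAs, mt-Co1 at 0.31 (limma adjusted p = 0.0307) and mt-Nd1 at 0.29 (limma adjusted p = 0.00761) passed too. mt-Cytb at 0.15 (limma adjusted p = 0.195) and mt-Rnr1 at 0.09 (limma adjusted p = 0.698) did not. Without the samples rich in choroid plexus markers 6 of the 89 were higher and 1 lower, and between nPM males and nPM females 4 were higher and 1 lower, beside 4.74% and 7.21% of all genes. The comparison of control males with control females shares its control samples with the comparisons of nPM with control.

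**Figure D5:**
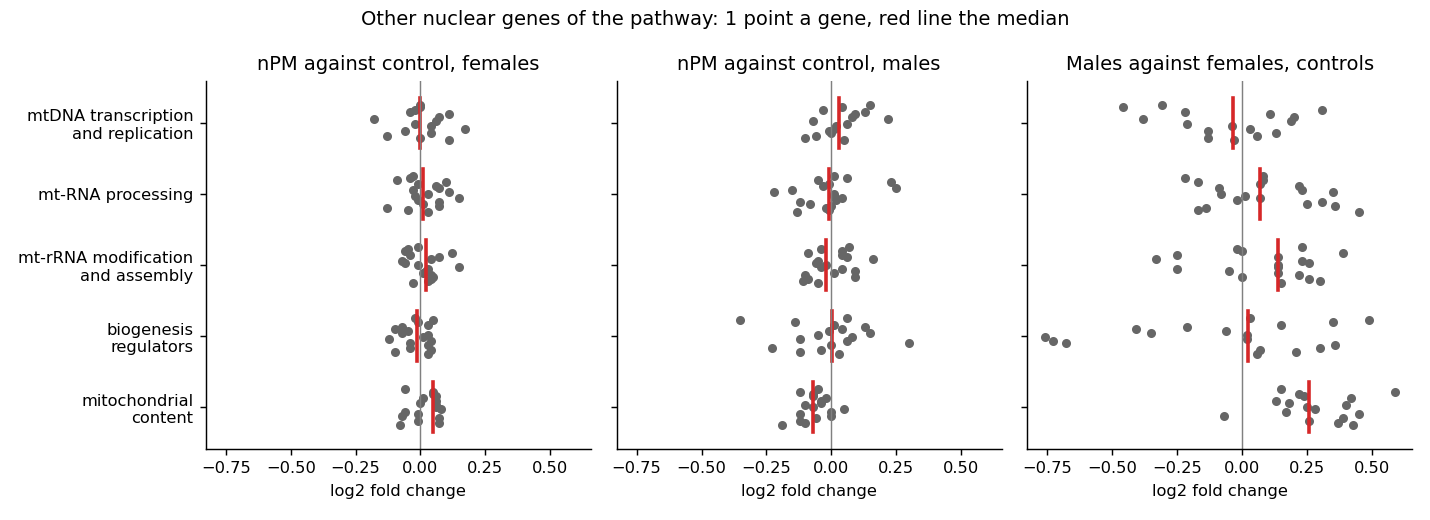
Log2 fold change of each of the 89 pathway genes in 5 lists (rows), for nPM against control in females, in males, and for males against females in controls, on 1 scale, with 1 point per gene and a red line at the median of the list. The content genes have medians of 0.05, -0.07 and 0.26 in the 3 panels.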

How the data were processed

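RNA of 20 hippocampi, 5 in each of 4 groups, was depleted of ribosomal RNA (RiboZero Gold) and sequenced on an Illumina HiSeq sequencer. Per the methods, the authors checked reads with FastQC, trimmed adapters with Trimmomatic, aligned to mm10 with HISAT2 and counted reads per gene with featureCounts 1.5.0-p3 on Gencode M11. They deposited raw counts for 48709 genes, and a gene map with lengths and the authors' mean RPKM over the 20 samples. This mean was recomputed from the deposited counts and differed by at most 4.37e-11. The strand setting is not given in the sources used here.

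Groups came from the sample labels. Genes were kept by the filterByExpr function of edgeR 4.0.16 over the 4 groups (minimum count 10, minimum total 15), leaving 19797. Counts were normalized by TMM over all samples, and fitted with voom and empirical Bayes moderation in limma 3.58.1 (R 4.3.3) within each sex, with sex as covariate, for the difference between the sexes, and between the sexes in controls or in nPM samples. The thresholds were an unadjusted p under 0.005, as in the study, and a Benjamini-Hochberg adjusted p of 0.05. Shares of mitochondrial counts were compared by 2-sided exact permutation tests, and correlations by 100000 permutations within groups, both 2-sided. RPKM of single samples was computed from counts, gene length and total count. The fits were tested on simulated data. Alternatives were edgeR quasi-likelihood tests, DESeq2 1.42.0, RLE scaling, library size outside the mitochondrial genome, no filter, replicate blocks, age as covariate, 1 fit of 4 groups and leaving out samples. Leaving out samples rich in choroid plexus markers, the sex comparison in nPM samples and the test of mitochondrial shares between the sexes were added after seeing the data.

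The 7 genes and all lists were chosen with earlier results of these data known. Genes named beyond the 7 were list genes with an unadjusted p under 0.005 or the smallest p of a list in females or males, neighbors within 20 kb, the 5 most and 3 least correlated with Tfb2m, and 6 mitochondrial transcripts. For the list genes past this threshold between control males and females, examples are named. Tfb2m was to be tested between the sexes in controls, but control males were among the samples that chose it, so it was left out of that count. Counting error is smallest at high counts, and intervals in the text cover the spread between samples. Protein sequences were not used here.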

Additional observations from a re-analysis of the deposited data

Results flagged for a closer look

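In groups of 5 samples, 5 of 52 groups examined held a sample whose gap to the nearest other exceeded Dixon's 95% critical value of 0.71, and chance flags about 1 in 20. Of these, 3 were in nPM female 4, with Tfam at 40.5 CPM (others 31.4 to 33.1), Polrmt at 8.86 CPM (others 16.9 to 18.6) and Ssbp1 at 22.2 CPM (others 17.3 to 18.5). Mitochondrial mRNA in control female 3 was 2.49% of counts outside mitochondrial ribosomal RNA (others 2.07 to 2.19%). The log2 ratio of mt-Rnr2 to mt-Rnr1 in control male 1 was 3.16 (others 2.61 to 2.72).

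The nPM effect differed between the sexes at an unadjusted exact permutation p below 0.05 in 3 of 6 mitochondrial measures, over 63504 regroupings. The male minus the female effect was -2.4 percentage points for the share of all mitochondrial counts, -2.36 for the ribosomal RNAs (exact permutation p = 0.0128) and -0.292 for the log2 ratio of ribosomal RNA to mRNA (exact permutation p = 0.0258). The adjusted p was 0.0515 for each. None of the 3 was computed without nPM female 4. Without that sample the female effects were 0.843, 0.993 and 0.247 for these measures, beside 1.39, 1.42 and 0.221 with it. Both male groups were above control females in mean share, at 13.9% in controls and 12.9% in nPM males against 12.1%, and nPM females were at 13.5%.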

How the results depend on the processing

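The count of genes past an unadjusted p of 0.005 stayed at 0 under every alternative run, among the 7 genes in females and the 6 other than Tfb2m in males, in both sexes and for the difference between the sexes. Of the 6 genes other than Tfb2m, 2 differed between control males and females, 1 without the samples rich in choroid plexus markers and 0 in nPM samples. With mRNA in place of all mitochondrial counts, the difference was -0.00338 percentage points in females, opposite in sign, -0.112 in males and -0.108 between the sexes. Without nPM female 4 the mRNA difference in females was -0.143 percentage points. The replicate block in males, a sign-flip test on differences within replicate numbers, gave -1.01 (exact p = 0.0625, the smallest it can give). Same-numbered samples did not deviate together (correlations of -0.364 to 0.157 within a sex, and -0.093 to 0.224 between control females and control males, where 3 of 5 matched their own number best), so the numbers were not taken to pair samples, and the block changed no other call. Leaving out 1 sample gave 0.843 to 1.75 for the mitochondrial share in females and -1.24 to -0.63 in males. In the 10 controls alone the correlation with mitochondrial counts changed sign for Tfb1m (0.32), Tfb2m (-0.10) and Polg (0.41), and with mRNA alone for Polg2 (-0.08). Without the 2 controls farthest from the median, Tfb1m, Tfb2m and Polg had -0.55, 0.77 and -0.33, so these sign changes rest on 2 samples. Without the samples rich in choroid plexus markers, log2 fold changes changed sign for Tfb2m in females (0.03) and for Polrmt in females (-0.04) and males (0.08), and in males Tfb2m was -0.62, Tfam -0.18, Tfb1m -0.17, Polg 0.19 and Polg2 0.38, with none of the 6 past the threshold. DESeq2 gave 0.00 for Polg2 in females. Leaving out 1 sample gave -0.08 to 0.01 for Tfam and -0.11 to 0.00 for Polrmt in males, and -0.02 to 0.12 for Tfb1m, -0.12 to 0.06 for Tfb2m, -0.09 to 0.10 for Polg2 and -0.08 to 0.01 for Ssbp1 in females. The causes of these changes were not tested, and the values of Tfb2m in males come from the samples that chose it. With 5 samples a group and 52 to 116 reads for Polg2, differences within the stated intervals were not detectable.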
